A study of Mus musculus with 3 samples.

Results

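The subject is the transcriptome of control MIN6 cells, described by absolute level in a single RNA-seq library. MIN6 is a mouse insulinoma line, derived from beta-cell tumours of a mouse carrying SV40 large T antigen under an insulin promoter, and it is widely used as a model of the insulin-secreting beta cell. The library analysed came from MIN6 cells given the negative control siRNA siNC, and it is 1 of 3 libraries of the study, whose other libraries came from cells given an siRNA against Srsf1 or Srsf2. All 21899 gene symbols of the deposited table were ranked by their level in the siNC library, and no comparison with the other libraries was made. The siNC group holds 1 library, so no spread between cultures could be estimated and no test was run. The 95% intervals given are exact Poisson intervals for a level and exact Clopper-Pearson intervals for a ratio or a share of reads, and they cover counting error only. Levels are in FPKM, the read count divided by the gene length in the table and by the library's total, which allows genes of different lengths to be set side by side within the library. The labels call the material total RNA extracted with Trizol, and the sources used here do not state poly(A) selection, removal of ribosomal RNA or strand.

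Beta cells make insulin as preproinsulin, which enters the endoplasmic reticulum through the translocon, is folded with disulfide bonds, and is then packed with zinc into dense-core granules where prohormone convertases and a carboxypeptidase cut it to the mature hormone. Granules also carry granins and islet amyloid polypeptide. Release is set by glucose metabolism, which closes ATP-sensitive potassium (KATP) channels and opens voltage-gated calcium channels.

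The siNC library held 12688334 counted reads. Of 21899 genes, 14584 had at least 1 read and 10575 reached 1 FPKM, which is 48.3% of the genes and is the background for each count of genes at 1 FPKM below. For a gene of the median length of 3511 bases, 1 FPKM rests on 44.5 reads. There were 4724 genes at 10 FPKM or more, 291 at 100 FPKM or more and 19 at 1000 FPKM or more. The median was 0.700 FPKM over all genes and 8.55 FPKM over those that reached 1 FPKM.

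The levels were concentrated in few genes. The highest gene held 7.22% of the summed FPKM, the highest 10 held 23.9%, the highest 100 held 39.8%, and 321 genes together held 50% of it. As a share of reads, which does not divide by gene length, the 10 genes with most reads held 10.3%. All markers given for this cell were present: Ins2 at 18912 FPKM (18846 to 18978), Ins1 at 1733 FPKM (1711 to 1755), Pdx1 at 187 FPKM (182 to 192) and Mafa at 131 FPKM (127 to 135). Ins1 ranked 14 by FPKM and Pdx1 ranked 116, so the hormone transcripts stood far above those of the transcription factors that bind their promoters.

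**Figure D1:**
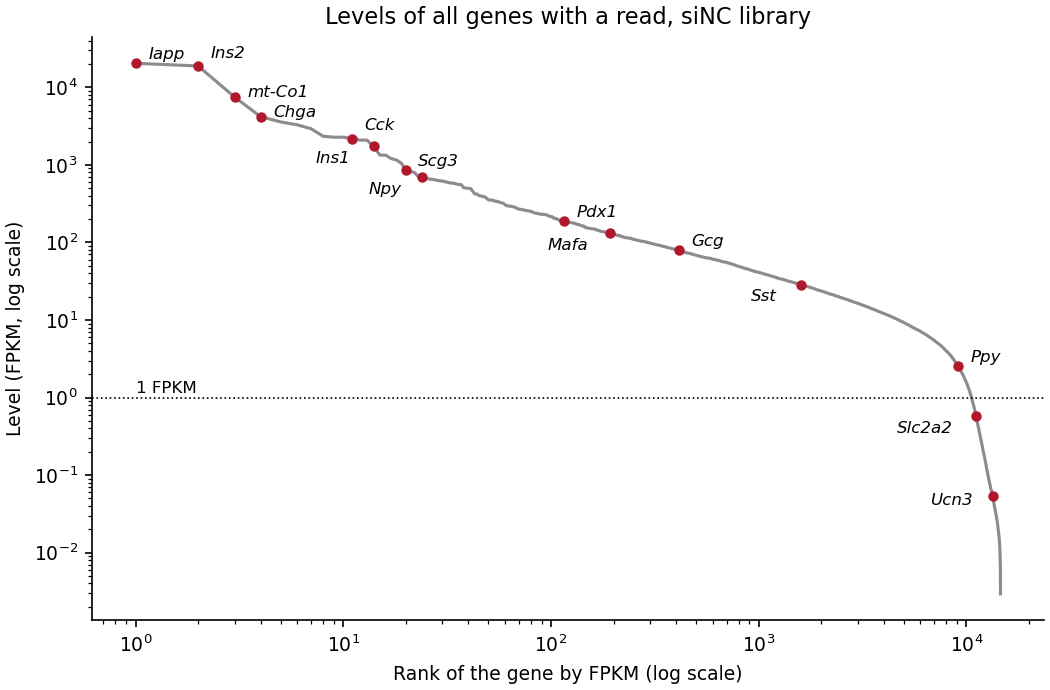
Level in FPKM (y axis) against the rank of the gene (x axis), both on a log scale, in the siNC library. The 14584 genes with at least 1 read are drawn, with named islet and granule genes and mt-Co1 as red points. The 1 FPKM line is dotted. The curve starts at 20488 FPKM for Iapp, passes Pdx1 at 187 FPKM and Sst at 28.6 FPKM, and drops steeply below 1 FPKM, where Slc2a2 (0.575 FPKM) and Ucn3 (0.0533 FPKM) lie.

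The 30 highest genes fell into a few kinds. Hormones and neuropeptides were Iapp (islet amyloid polypeptide, or amylin), Ins2, Cck (cholecystokinin, 2188 FPKM), Ins1, Npy (neuropeptide Y, 698 FPKM) and Pdyn (prodynorphin, 682 FPKM). Granule proteins were the granins Chga (4196 FPKM), Chgb (2932 FPKM), Scg2 (2086 FPKM) and Scg3 (865 FPKM) and the processing enzyme Cpe (1207 FPKM). Genes encoded in the mitochondrial genome took 7 of the 30 places, led by mt-Co1 (cytochrome c oxidase subunit 1) at 7495 FPKM. Genes of protein synthesis and folding were Eef1a1 (2279 FPKM), Eef2 (820 FPKM), the disulfide isomerase P4hb (707 FPKM), Hsp90ab1 (637 FPKM), calreticulin Calr (626 FPKM) and Hspa8 (619 FPKM). The others were transthyretin Ttr (2094 FPKM), the islet glucose-6-phosphatase subunit G6pc2 (1340 FPKM), the imprinted transmembrane protein Dlk1 (1337 FPKM), the citrate-cleaving enzyme Acly (800 FPKM), prosaposin Psap (656 FPKM) and Tceal9 (651 FPKM).

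Iapp and Ins2 were close, and which of them is called the higher depended on the gene length. In the table Iapp had 20488 FPKM (20408 to 20568) from 253196 reads, and Ins2 had 18912 FPKM from 314837 reads, a ratio of Iapp to Ins2 of 1.08 (1.08 to 1.09). The table's lengths are 974 bases for Iapp and 1312 bases for Ins2, which equal the merged exons of every annotated transcript of each gene. With the length of the longest transcript, 839 bases for Iapp and 918 bases for Ins2, the ratio was 0.880, and with that of the shortest principal transcript, 839 and 455 bases, it was 0.436. The Ins2 gene model spans chr7:142678656-142743381 on GRCm38, and that of Iapp spans chr6:142298423-142303961. Dlk1 depended on the length to a similar degree, at 1337 FPKM with the table's 5657 bases and 4442 FPKM with a principal transcript of 1703 bases.

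**Figure D2:**
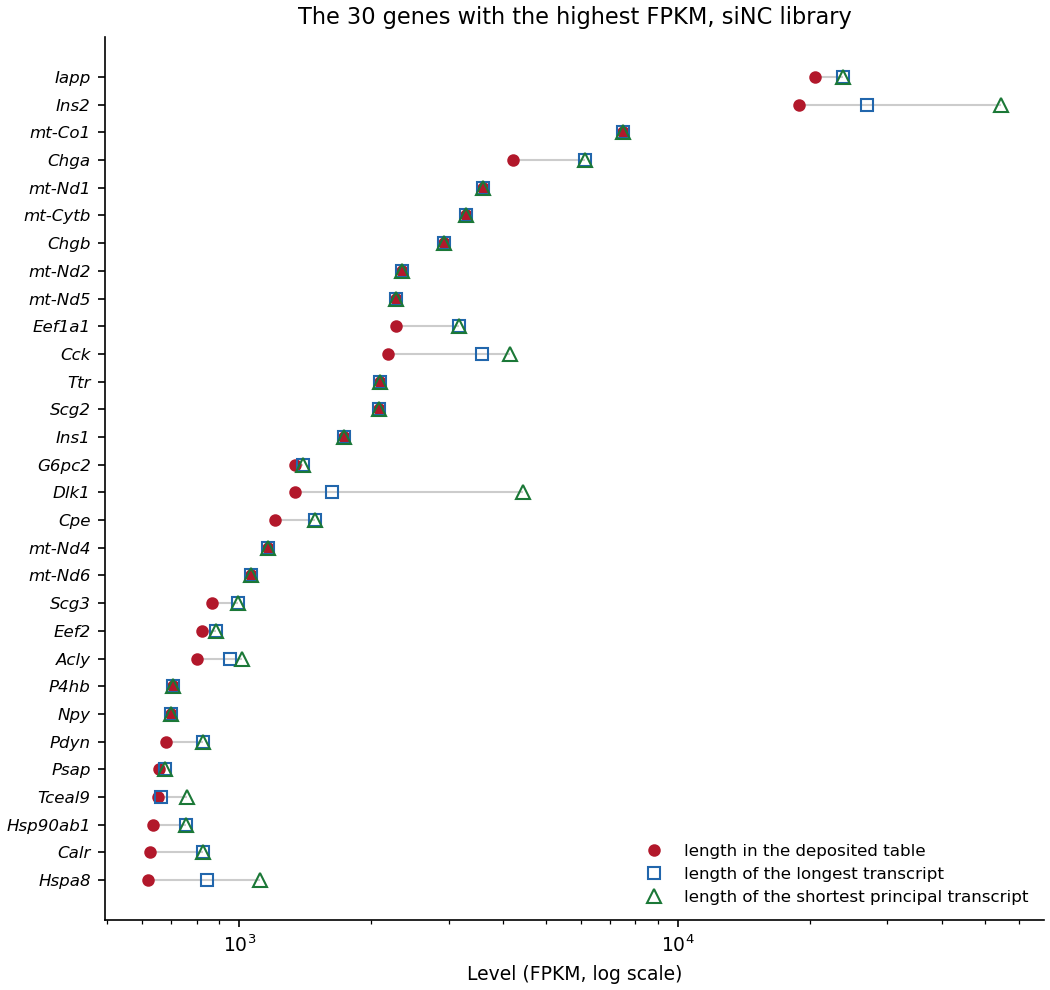
Level in FPKM (x axis, log scale) of the 30 genes with the highest FPKM in the siNC library, with the table's gene length (red dots), the longest transcript (blue squares) and the shortest principal transcript (green triangles), joined by a grey line. Ins2 moves from 18912 FPKM to 54534 FPKM and Dlk1 from 1337 FPKM to 4442 FPKM with the shortest principal transcript, while Ins1, Ttr and the mitochondrial genes do not move.

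The mouse has a pair of insulin genes. Ins2 corresponds to the insulin gene of other mammals, and Ins1 is a retroposed copy that lacks the second intron. Ins2 carried 91.6% of their summed FPKM and Ins1 carried 8.39%, a ratio of Ins2 to Ins1 of 10.9 (10.8 to 11.1). With the other lengths tried the ratio of Ins2 to Ins1 lay between 13.2 and 31.5, so Ins2 led under each of them. Together they held 7.27% of the summed FPKM and 2.67% of reads (2.66% to 2.67%). The share of summed FPKM was 11.95% with the shortest principal transcripts.

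How far the reads of such near copies can be told apart depends on their sequence, so the first 150 coding bases of each gene are shown, 5′ to 3′, from the GENCODE M21 transcripts on GRCm38, with the positions at which they differ in capitals. Ins1 lies at chr19:52264624-52264773 on the plus strand and Ins2 at chr7:142679384-142679533 on the minus strand.
Ins1: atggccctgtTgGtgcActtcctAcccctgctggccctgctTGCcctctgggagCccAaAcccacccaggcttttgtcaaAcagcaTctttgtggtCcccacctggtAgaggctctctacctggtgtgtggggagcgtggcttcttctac
Ins2: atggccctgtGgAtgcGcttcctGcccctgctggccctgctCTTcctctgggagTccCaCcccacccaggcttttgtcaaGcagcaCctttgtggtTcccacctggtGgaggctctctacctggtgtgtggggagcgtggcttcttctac
They were the same at 136 of 150 positions (90.7%), and the longest run without a difference was 42 bases. Over whole transcripts, 0.690% of the 50-base words of Ins1 and 0.470% of those of Ins2 occurred in a transcript of any other annotated gene.

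Of the 8 islet hormone genes, 6 reached 1 FPKM. After Iapp and the insulins came Gcg (proglucagon, the alpha-cell hormone) at 78.8 FPKM (74.9 to 82.9), Sst (somatostatin, the delta-cell hormone) at 28.6 FPKM (25.3 to 32.3) and Ppy (pancreatic polypeptide) at 2.52 FPKM on 16 reads. Ghrl (ghrelin) had 0.877 FPKM on 12 reads and Pyy (peptide YY) 0.250 FPKM on 2 reads. Ins2 exceeded Gcg 240-fold (228 to 253), or 504-fold with the shortest principal transcripts. In a bulk library, a small number of cells with much Gcg and a low level in all cells cannot be told apart. Hhex, a factor that defines delta cells beside their hormone, had 0 reads.

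All 18 beta-cell transcription factors on the list reached 1 FPKM, with a median of 34.0 FPKM. The highest were Pdx1, Mafa, Neurod1 (124 FPKM), Nkx6-1 (79.5 FPKM), Isl1 (71.3 FPKM) and the glucose-responsive factor Mlxipl (63.9 FPKM), and the lowest included Rfx3 (3.69 FPKM) and Nkx6-2 (1.20 FPKM on 29 reads). Of 20 factors of other islet cells, progenitors and exocrine cells, 3 reached 1 FPKM, with a median of 0.0191 FPKM. These were Bhlha15 (Mist1, a factor of secretory acinar cells) at 11.5 FPKM, the Notch target Hes1 at 5.46 FPKM and Gata4 at 2.16 FPKM. Of the others 9 had 0 reads, among them Irx1, Irx2, Hhex, Rbpjl, the endocrine progenitor factor Neurog3 and the acinar factor Ptf1a. A count of 3 reads, taken as the limit that 0 reads allow, equals 0.0468 FPKM for Hhex, 0.141 FPKM for Neurog3 and 0.157 FPKM for Ptf1a.

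Mafa held 68.2% of the summed FPKM of 7 Maf genes, followed by the small Maf protein gene Mafg (31.0 FPKM), which passed Mafa when the shortest principal transcript or the coding length was used. Nkx6-1 held 77.8% of 11 Nkx genes, of which 8 had 0 reads, among them the lung and thyroid factor Nkx2-1 and the heart factor Nkx2-5. Neurod1 held 98.6% of the NeuroD and neurogenin family, Foxa2 96.4% of the Foxa family, Isl1 80.0% of the Isl and Lhx genes, Rfx6 77.1% of the Rfx genes and Pax6 80.3% of the Pax genes. Pax2, a kidney and ear factor, came after Pax6 with 687 reads and 19.4% of that family's FPKM. Not every family had such a leader, and E2f1 held 30.6% and E2f4 23.4% of 8 E2f genes. Across the 786 genes that the table annotates with DNA-binding transcription factor activity, the highest were Peg3 (249 FPKM), Atf4 (216 FPKM), Pdx1, Mafa, Neurod1 and Meox2 (83.6 FPKM), a homeobox gene best known from muscle and vessel development.

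The prohormone-processing and granule list was present in full. Its 20 genes all had at least 10 FPKM, from 19.1 FPKM for Qsox1 to 4196 FPKM for Chga, with a median of 218 FPKM and 4.86% of the summed FPKM. Chga, the chromogranin that helps form dense-core granules, led the 7 granins with 39.7% of their FPKM, and its ratio to Chgb was 1.43 (1.42 to 1.44). The convertases Pcsk1 (265 FPKM) and Pcsk2 (257 FPKM) together held over 80% of their family. The ratio of Pcsk1 to Pcsk2 was 1.03 (1.01 to 1.05), and it turned to 0.686 with the longest transcripts, so neither is called the higher. Cpe, which trims the basic residues that the convertases leave, held 93.6% of 7 carboxypeptidase genes. Ptprn, a granule membrane protein and autoantigen, had 291 FPKM, the convertase chaperone Scg5 had 267 FPKM, and Slc30a8, which loads zinc into granules, had 162 FPKM and 63.8% of the 10 zinc exporters. That share was 40.2% with the coding length and 32.8% by reads, with Slc30a8 still the highest.

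Upstream of the granule, the 22 genes of the signal recognition particle, the translocon and signal peptidase all reached 1 FPKM, with a median of 54.1 FPKM. Srpr, the receptor of the signal recognition particle, had 177 FPKM and the translocon-associated Ssr2 149 FPKM, and the lowest was Srp54a at 2.83 FPKM, for which 70.5% of 50-base words are shared with other genes. P4hb led the 14 protein disulfide isomerases with 40.8% of their FPKM, at 707 FPKM, and Pdia3 followed at 354 FPKM. Ero1lb, the endoplasmic reticulum oxidase typical of the pancreas, had 324 FPKM, against 52.4 FPKM for the widely expressed Ero1l, a ratio of 6.19 (5.98 to 6.42). Hspa5 (BiP), the main chaperone of the endoplasmic reticulum, had 503 FPKM. Of the sensors of unfolded proteins, Ern1 (IRE1 alpha) led at 37.6 FPKM and its gut paralogue Ern2 had 0.106 FPKM on 4 reads.

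**Figure D3:**
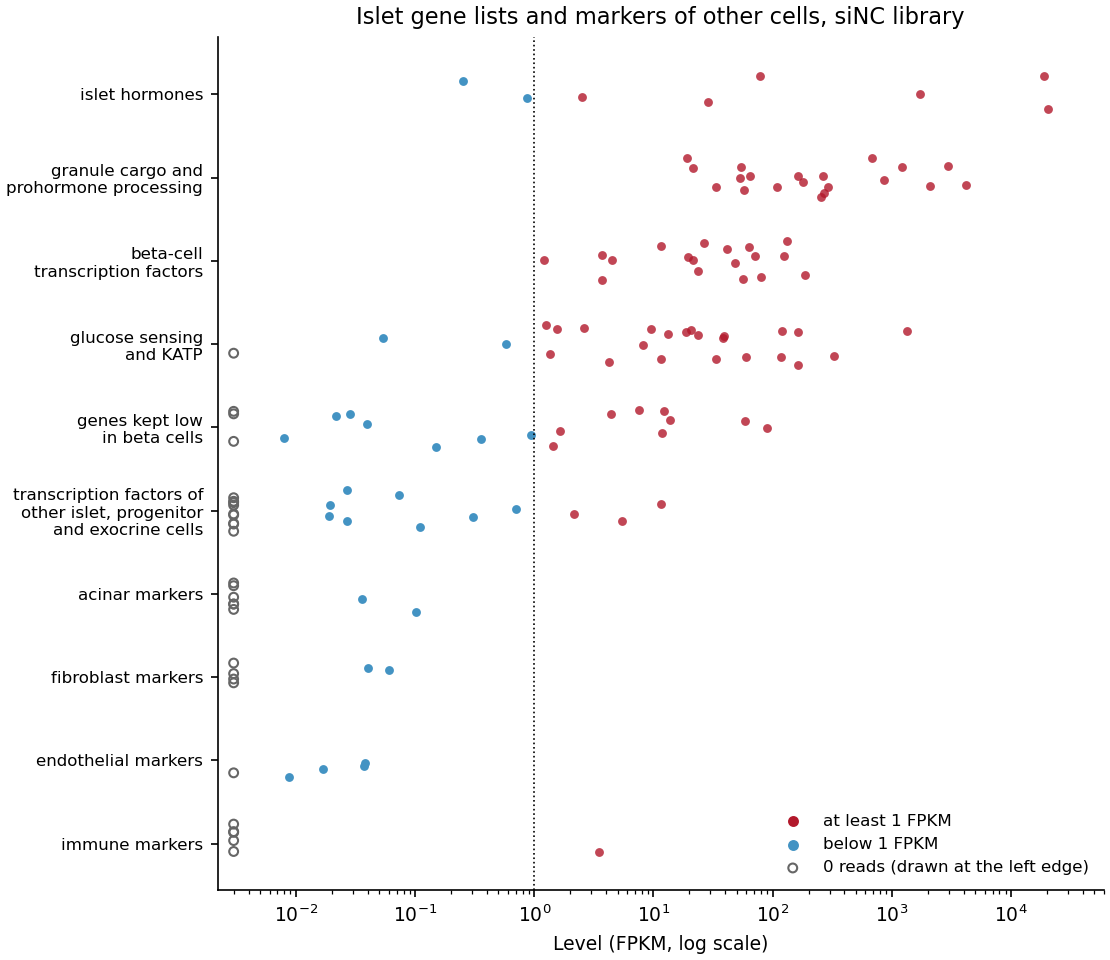
Level in FPKM (x axis, log scale) of each gene of 6 islet lists and 4 lists of markers of other cells (rows) in the siNC library, red at 1 FPKM or more (dotted line), blue below it, and open at the left edge for genes with 0 reads. The granule list and the beta-cell transcription factors lie wholly to the right of the line, and the acinar, fibroblast and endothelial markers wholly to the left.

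Genes of a list of glucose sensing, KATP channels and other beta-cell functions were mostly present, with the glucose transporter of the beta cell among the exceptions. The list also holds receptor genes such as Glp1r and Gipr, and Slc30a8, Ero1lb and Gjd2. Of its 25 genes, 22 reached 1 FPKM, with a median of 18.7 FPKM. Slc2a2 (GLUT2), the high-capacity transporter of rodent beta cells, had 0.575 FPKM (0.415 to 0.777) on 42 reads, and 2 further genes were lower still. These were Ucn3 (urocortin 3, a marker of mature mouse beta cells) at 0.0533 FPKM on 1 read and the lipid receptor gene Gpr119 at 0 reads. Among 12 glucose-transporter genes the highest was Slc2a5 (GLUT5, a fructose transporter) at 65.9 FPKM (63.5 to 68.4), with 69.4% of the family's FPKM. Slc2a1 (GLUT1) followed at 13.2 FPKM. Slc2a5 exceeded Slc2a2 115-fold (84.5 to 159), and Slc2a1 exceeded Slc2a2 23.0-fold (16.8 to 32.2), or 70.7-fold and 14.9-fold in this order on coding length.

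G6pc2, a glucose-6-phosphatase subunit of islets, had 1340 FPKM (1326 to 1354) and held 98.5% of its family, while the liver gene G6pc had 0 reads. Aldoa held 97.1% of the aldolases at 294 FPKM and Pkm 99.4% of the pyruvate kinases at 346 FPKM. Other families were spread over more genes. Eno1 held 77.4% of the enolases, Me1 75.7% of the malic enzymes, Idh2 41.0% of the isocitrate dehydrogenases and Pfkfb2 36.9% of the bifunctional phosphofructokinases. Idh3a passed Idh2 when the coding length was used. The leader of the phosphofructokinases was Pfkm at 28.8 FPKM, with Pfkl next at 22.3 FPKM, and this order was not kept with the other lengths.

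Genes described as kept low in beta cells were split. Of 19 such genes, 9 reached 1 FPKM, which is 47.4% beside 48.3% of all genes, and their median was 0.935 FPKM. Ldha (lactate dehydrogenase A) at 89.6 FPKM (on 3763 reads) and Oat (ornithine aminotransferase) at 59.0 FPKM were the highest, followed by Cxcl12 (13.9 FPKM), the lactate and pyruvate transporter Slc16a1 (12.2 FPKM) and Maf (11.8 FPKM). Ldha held 87.2% of the lactate dehydrogenases. At the other end Rest, the repressor of neuronal genes, had 0.0218 FPKM on 2 reads, Smad3 had 2 reads, Pdgfra had 1 read, and Mgst1, Fcgrt and Arhgdib had 0 reads.

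The channels that couple metabolism to release were represented by their beta-cell members. The KATP pore gene Kcnj11 had 39.2 FPKM while its vascular paralogue Kcnj8 had 0 reads, which allow up to 0.0928 FPKM. The KATP regulatory subunit Abcc8 (SUR1) had 162 FPKM and its muscle paralogue Abcc9 had 0.0188 FPKM on 2 reads. Abcc8 stood 4.13-fold (3.94 to 4.34) above Kcnj11 on the table's lengths and 2.23-fold above it on coding length. The channel itself holds equal numbers of both subunits. Cacna1c led the 10 calcium channel pores at 9.50 FPKM with 52.3% of their FPKM, followed by Cacna1d at 2.60 FPKM. Gjd2 (connexin 36), which couples neighbouring beta cells, had 20.6 FPKM and 99.1% of 13 connexins, and 11 of the others, Gja1 (connexin 43) among them, had 0 reads.

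Several receptor families were led by a receptor known from islets. Glp1r, the receptor of the incretin GLP-1, was the highest of 1928 genes that the table annotates with G protein-coupled receptor activity, at 118 FPKM, and it stood 6.34-fold (5.90 to 6.82) above Gipr, or 10.5-fold on coding length. The annotated class as a whole had 66 genes at 1 FPKM or more. Next in the class were the fatty acid receptor Ffar1 (59.5 FPKM), the galanin receptor Galr1 (44.4 FPKM) and the inhibitory adrenergic receptor Adra2a (44.4 FPKM on 2720 reads). Adra2a held 99.5% of the adrenergic receptors, and 7 of the 9, all 3 beta receptors included, had 0 reads. Sstr3 held 96.6% of the somatostatin receptors. The glucagon receptor gene Gcgr had 1 read. Both cholecystokinin receptors were present, Cckbr at 13.1 FPKM and Cckar at 5.52 FPKM, while Cck ranked after Iapp and Ins2 among genes annotated with hormone activity.

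Of 34 neuropeptide and gut hormone genes, 13 reached 1 FPKM, with a median of 0.431 FPKM. Cck (2188 FPKM) stood 3.14-fold (3.04 to 3.23) above Npy, or 5.12-fold with the longest transcripts, and Npy and Pdyn differed by less than the counting error, with a ratio of Npy to Pdyn of 1.02 (0.993 to 1.05), or 0.513 on coding length. They were followed by Sct (secretin, 133 FPKM), Nucb2 (the nesfatin-1 precursor, 103 FPKM) and Penk (proenkephalin, 13.6 FPKM). Vip, Gal, Crh, Trh, Avp, Oxt and 7 others had 0 reads. Genes of monoamine metabolism were high in part. Th (tyrosine hydroxylase, the first enzyme of catecholamine synthesis) had 189 FPKM (184 to 194), Maob (monoamine oxidase B) 128 FPKM and Ddc (aromatic amino acid decarboxylase) 113 FPKM. Tph1, which starts serotonin synthesis, had 9.76 FPKM, the vesicular transporters Slc18a1 and Slc18a2 had 5.05 FPKM and 1.25 FPKM, and Dbh, which turns dopamine into noradrenaline, had 0.117 FPKM on 4 reads. The order of Th and Ddc depended on the length, with a ratio of Th to Ddc of 1.67 on the table's lengths and 0.913 on the longest transcripts.

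Across 88 families with a fixed list of members, 87 had a member at 1 FPKM or more, the exception being the glutamate decarboxylases, whose higher member Gad2 had 0.322 FPKM. The leading member held over 50% of the family's FPKM in 63 of the 87 and over 90% in 21. In a family of 2 members, such as the insulins, the leader holds at least 50% whatever the levels. These counts were not set against what family size alone would give. The leader was the same by reads and with 3 other definitions of gene length in 71 families and changed under at least 1 of these in 16. Among the SR proteins, splicing factors that include the targets of the other libraries, Srsf7 (74.9 FPKM) and Srsf5 (72.2 FPKM) differed by less than the counting error, and Srsf1 had 56.2 FPKM and Srsf2 31.8 FPKM. The leader was Srsf5 with the shortest principal transcripts, Srsf3 with the coding length and Srsf1 by reads, so none is called the highest. Snap25 (36.3 FPKM) and Snap47 (34.0 FPKM), membrane-fusion proteins, also differed by less than the counting error, while Snap25 held 58.1% of its family with the shortest principal transcripts and 37.2% with the table's length. Gpx1 (70.3 FPKM) and Gpx4 (62.9 FPKM), which reduce peroxides, changed places with each other definition of length and by reads. Syt13 (229 FPKM) held 53.4% of the FPKM of 17 synaptotagmins, and Syt4 (54.0 FPKM) was next. The calcium sensors of release Syt7 and Syt9 had 47.4 and 19.4 FPKM. With the shortest principal transcripts Syt7 led instead, at 39.0% of the family.

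**Figure D4:**
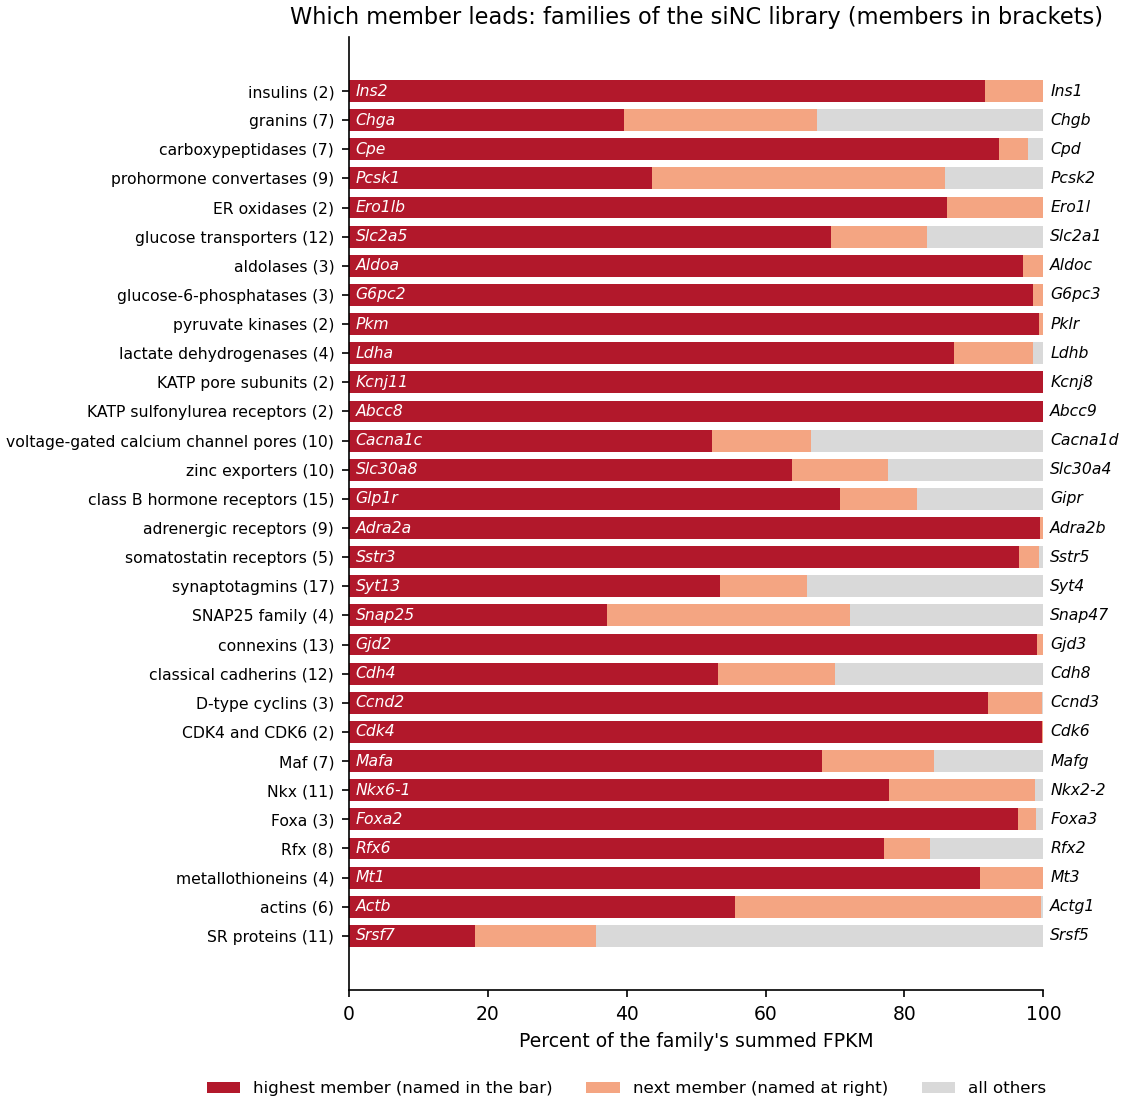
Percent of a family's summed FPKM (x axis) held by its highest member (dark red, named in the bar), the next (light red, named at right) and all others (grey) for 30 of the 88 families in the siNC library, with the number of members in brackets. Kcnj11, Abcc8, Cdk4, Adra2a and Gjd2 each fill over 99% of the bar, and Srsf7 fills 18.1% of that of the SR proteins.

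Genes of cell division were present throughout. All 20 genes of the S-phase and mitosis list had at least 10 FPKM, with a median of 41.3 FPKM, led by the replication clamp Pcna (164 FPKM), Mki67 (79.4 FPKM) and the topoisomerase Top2a (68.7 FPKM). Ccnd2 (35.6 FPKM) held 92.1% of the D-type cyclins, and Ccnd1 had 0.0837 FPKM on 5 reads. Cdk4 (71.6 FPKM) stood 636-fold (411 to 1042) above Cdk6, or 159-fold on coding length. Of 7 genes for inhibitors of cyclin-dependent kinases, 6 had at least 10 FPKM, led by Cdkn2c (154 FPKM) and Cdkn1b (90.9 FPKM), and Cdkn2a had 69.4 FPKM. By reads Cdkn1b led instead, with 35.9% of the family. Trp53 had 13.4 FPKM and 97.9% of its family.

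The structural genes named here included neuronal members and, at lower levels, epithelial ones. The neurofilament gene Nefm (56.0 FPKM) led 17 intermediate filament genes with 46.4% of their FPKM, followed by Nefl (34.7 FPKM). The epithelial keratin gene Krt8 had 11.6 FPKM while its usual partner Krt18 had 0.219 FPKM on 4 reads, a ratio of Krt8 to Krt18 of 52.7 (20.3 to 195), and the mesenchymal filament gene Vim had 0.532 FPKM. Cdh4 led the classical cadherins at 36.8 FPKM, and Cdh1 (E-cadherin) had 3.86 FPKM. Mt1 held 90.8% of the metallothionein FPKM, and Mt2 had 0.268 FPKM on 2 reads, with 45.9% of its 50-base words shared with other genes.

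Markers of other cell types were at or near 0, apart from the islet hormone genes Gcg, Sst and Ppy given above and 7 further genes. None of 8 acinar, 6 fibroblast, 5 endothelial or 5 erythroid markers reached 1 FPKM. Their highest members were Cela1 (0.103 FPKM on 3 reads), Col1a1 (0.0600 FPKM on 5 reads) and Pecam1 (0.0380 FPKM on 3 reads), and the erythroid markers had 0 reads throughout. Of 6 immune markers only Cd68 (a lysosomal glycoprotein) had reads, at 3.51 FPKM on 56 reads, and Ptprc, which is found on all leukocytes, had 0 reads. Of 6 ductal markers Spp1 (osteopontin, 121 FPKM) and Krt7 (3.15 FPKM) reached 1 FPKM, and Krt19 and Cftr had 0 reads. Of 6 neuronal markers Snap25 and Map2 (18.5 FPKM) did so, and Slc32a1 had 0 reads. Of 5 hepatocyte markers Ttr and Apob (1.09 FPKM) did so, while Alb had 0.269 FPKM on 8 reads.

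Some genes listed at low levels share most of their sequence with other genes. The mitochondrial genome codes for 13 proteins in transcripts that are made as long precursors, and they held 7.52% of the summed FPKM, spread over a range from 0.773 FPKM for mt-Atp8 to 7495 FPKM for mt-Co1. The 7 genes at over 1000 FPKM shared between 0% and 62.2% of their 50-base words with other annotated genes. The 5 genes mt-Co2 (67.2 FPKM), mt-Co3 (26.7 FPKM), mt-Atp6 (21.5 FPKM), mt-Nd4l (7.43 FPKM) and mt-Nd3 (6.11 FPKM) shared between 98.0% and 100% of theirs. For each of these 5, the largest match was a pseudogene copied into chromosome 1, between chr1:24612407-24612700 for the copy of mt-Nd4l and chr1:24614885-24615565 for that of mt-Co2. The copy of mt-Co2, annotated as Gm28661, was the same at 681 of 681 positions compared. The first 90 bases of each are shown, 5′ to 3′, for mt-Co2 at chrM:7013-7102 on the plus strand and for Gm28661 at chr1:24615476-24615565 on the minus strand, and no base is in capitals because none differs.
mt-Co2: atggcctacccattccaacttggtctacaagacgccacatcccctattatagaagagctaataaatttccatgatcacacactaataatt
Gm28661: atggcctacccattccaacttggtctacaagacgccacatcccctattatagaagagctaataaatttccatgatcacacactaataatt
mt-Atp8 is the exception, with 0.773 FPKM on 2 reads and 0% of words shared with an annotated gene. It lies between mt-Co2 and mt-Atp6 in the mitochondrial genome, and the copies of these genes on chromosome 1 lie 233 bases apart. No source used here says how reads with several matches were counted, and its part in these levels was not tested.

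**Figure D5:**
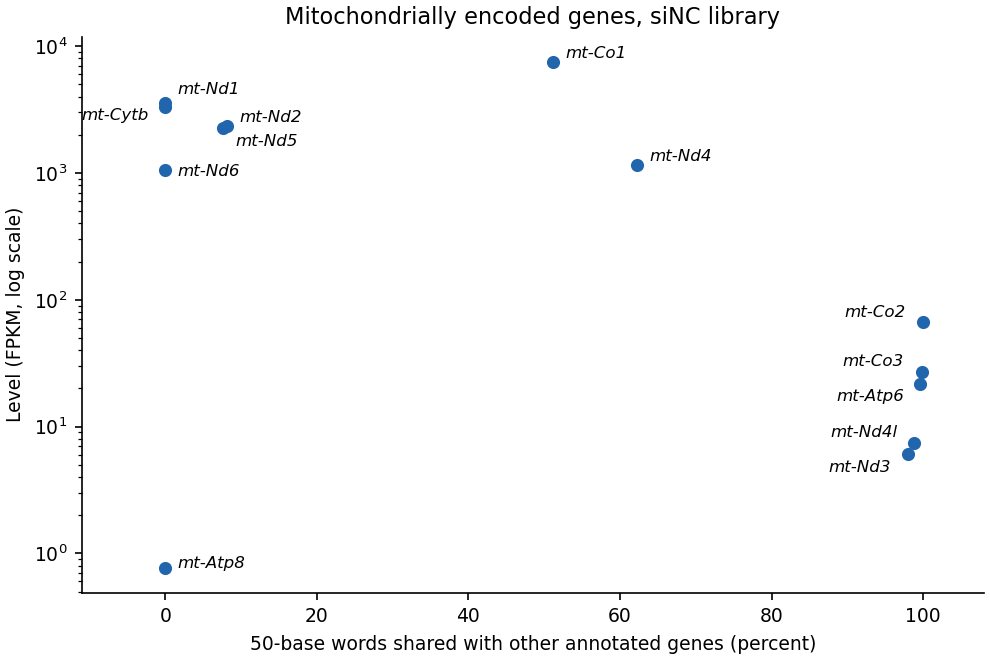
Level in FPKM (y axis, log scale) of the 13 mitochondrially encoded genes in the siNC library against the percent of their 50-base words found in transcripts of other annotated genes (x axis). The 5 genes with 98.0% or more of their words shared lie between 6.11 and 67.2 FPKM, the 7 genes with 62.2% or less lie above 1000 FPKM, and mt-Atp8 lies apart at 0.773 FPKM with 0% shared.

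Low levels were also listed for a few genes that growing cells use in general. Of 81 cytosolic ribosomal protein genes, which together held 4.07% of the summed FPKM, 79 reached 1 FPKM with a median over the family of 110 FPKM, led by Rps3a1 (584 FPKM) and Rplp0 (581 FPKM). The exceptions were Rpl24 at 0.0765 FPKM on 1 read and Rps10 at 0.341 FPKM on 10 reads, with 51.8% and 22.6% of words shared. Of 78 mitochondrial ribosomal protein genes only Mrpl53 was below 1 FPKM, at 0 reads, with 82.0% of words shared, and of 17 ATP synthase genes only Atp5o was, at 0.560 FPKM. Gapdh, one of the most used reference genes, had 58.8 FPKM, with 25.1% of words shared. Rps3a1 shared 71.0% of its words. Of 21787 genes with a value, 1802 shared over 50% of their words, and the median was 0.660%.

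All 16 genes of a fatty acid and sterol synthesis list, drawn up after the levels were seen, reached 1 FPKM, led by Acly (800 FPKM), which makes cytosolic acetyl-CoA, and the desaturase gene Scd2 (329 FPKM). The carboxylase gene Acaca was the lowest at 7.02 FPKM. All 19 genes of a lysosomal list, also drawn up afterwards, reached 1 FPKM, so neither count is independent of the choice of genes. The lysosomal genes ran from 5.24 FPKM for the cholesterol transporter Npc1 to 656 FPKM for Psap, after which Hexa (294 FPKM), Lamp1 (287 FPKM) and the acid glucosidase gene Gaa (231 FPKM) came. The 18 aminoacyl-tRNA synthetase genes all reached 1 FPKM, led by Gars (127 FPKM). By the table's annotation, genes with hormone activity held 16.5% of the summed FPKM and genes of the secretory granule 12.1%. Those of the endoplasmic reticulum held 11.9% and those of the mitochondrion 18.8%, and a gene can belong to several of these classes. The secretory granule class leaves out Iapp, which alone held 7.22% of the summed FPKM, and Scg3 (865 FPKM). It is therefore not the full share of granule genes, and the hormone class includes Ttr.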

How the data were processed

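The study sequenced RNA from MIN6 cells in 3 libraries, of which the siNC library was used here. Per the file headers, the deposited table gives a read count per gene, in whole numbers and without normalisation. It also gives an FPKM computed by the authors, which was checked to equal the count over the table's gene length and column total, within 0.000355%. The submitters' processing notes name Bowtie2 2.4.2 as the aligner and mm10 (GRCm38) as the build. How reads were counted, on which annotation, and what was done with reads of several matches is not given there. The table's length equals the merged exons of GENCODE M21 in 98.2% of lines.

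Lines sharing a symbol (67 lines, 31 symbols) were summed. The line emptied for this work (1) was not analysed here, and some genes of the lists are not reported here. Shares are percents of the summed FPKM. Intervals at 95% came from SciPy 1.17.1 under Python 3.11.15, with a floor of 3 reads for genes at 0. Their coverage was checked on libraries simulated with counting error alone, which cannot show the spread between cultures. Shared words are 50-base words of a gene's GENCODE M21 transcripts, on either strand, found in another gene's transcripts. Each sequence was read from those transcripts. Alternatives changed the gene length, the minimum level, the unit or the genes in the total.

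The members and lists were chosen with earlier results of these data known, and lists of imprinted genes, sex-linked pairs, lipid synthesis, Bex and Tceal genes and lysosomal genes were added after the levels were seen. The text names the 30 highest genes, the first and second of a family with members at 0 reads that define another tissue, up to 6 highest and 6 lowest of an islet or pathway list, and, of markers of other cells, the 2 highest and those at 0. Genes named from added lists, name-based or annotated classes, and Vim, Krt18, Ccnd1, Cdkn2a, Mt2, Syt7, Syt9, Cdh1, Hspa5, Ern2, Slc18a1, Slc18a2, Dbh, Gcgr, Ptprn, Scg5, Srsf1, Srsf2, Celf3, Elavl4 and Esrp1 where outside that rule, were chosen after their values were seen.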

Additional observations from a re-analysis of the deposited data

How the results depend on the processing

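No paired analysis was possible because the siNC group holds 1 library and no groups were compared. The share of summed FPKM in the 10 highest genes, 23.9%, was 22.5% with the longest transcript, 24.1% with the shortest principal transcript, 21.3% with coding length, 10.3% of reads for the genes with most reads, 22.2% without mitochondrially encoded genes and 19.4% without Ins1 and Ins2. The share in Ins1 and Ins2, 7.27%, was 7.76%, 11.95% and 8.50% with those lengths in the same order, 2.67% of reads and 7.86% without mitochondrially encoded genes. The log2 ratio of Iapp to Ins2, 0.12, reversed to -0.18, -1.20 and -0.072 with those lengths and to -0.31 by reads. The length alternatives and this ratio by reads were chosen after seeing the data. The count of genes at 1 FPKM or more stayed within 1.5 times under 8 alternatives (7296 at 5 FPKM to 14584 with any read), as did the counts of families led by 1 member above 50% and of genes of the pooled islet lists at 1 FPKM or more, 77 of 109. The pool includes the 19 genes described as kept low in beta cells. It also includes the 20 factors of other islet cells, progenitors and exocrine cells, so it does not count beta-cell genes alone. Genes at 0 reads are limited by depth, and 3 reads equal 0.236 CPM, counts relative to the library total.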

Other observations

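Imprinted genes ranged widely in the siNC library. Of 24 such genes, listed after the levels were seen, 14 reached 1 FPKM, led by Dlk1, Peg3 (249 FPKM), Nap1l5 (74.6 FPKM), Igf2r (71.9 FPKM) and Nnat (58.6 FPKM), while Ndn, Peg10, Sgce, Magel2 and Phlda2 had 0 reads. Igf2, which adjoins Ins2, had 8.63 FPKM, with 62.1% of its 50-base words shared with other annotated genes. Of the Bex and Tceal genes, small X-linked genes of which many are found in neuroendocrine cells, Tceal9 (651 FPKM), Bex2 (388 FPKM) and Bex3 (238 FPKM) stood above the other 8, which lay at or below 18.1 FPKM. The Y-linked genes Ddx3y, Uty, Kdm5d and Eif2s3y had 0 reads, while their X-linked relatives had 153 FPKM for Ddx3x, 31.6 FPKM for Eif2s3x, 23.4 FPKM for Kdm5c and 12.4 FPKM for Kdm6a.

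Large receptor families were almost wholly silent, with single exceptions. Of 1103 olfactory receptor genes, 1045 had 0 reads and Olfr1259 alone reached 1 FPKM, at 5.78 FPKM on 317 reads, with 6.92% of its words shared. Of 350 vomeronasal receptor genes, 325 had 0 reads and Vmn2r96 alone reached 1 FPKM, at 1.02 FPKM. Among 64 replication-dependent histone genes, 15 reached 1 FPKM, led by H1f2 (70.2 FPKM) and H4c9 (16.3 FPKM). Their median was 0.199 FPKM, beside a median of 41.3 FPKM for the S-phase and mitosis list. Transcripts of these histone genes end without a poly(A) tail, and the sources used here do not state poly(A) selection. The part of this, or of sequence shared between genes, in these levels was not tested. Among regulators of neuronal splicing, Ptbp3 (56.5 FPKM) and Ptbp1 (50.5 FPKM) led, Celf3 (32.1 FPKM), Celf1 (26.7 FPKM) and Elavl4 (19.7 FPKM) followed, and the epithelial splicing regulator Esrp1 had 0 reads.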
